A study of Saccharomyces cerevisiae with 40 samples.

Results

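The nuclear genes that encode subunits of the mitochondrial respiratory chain and of ATP synthase were followed in a cross between 2 haploid yeasts. The genes were taken from a list of 36 by systematic name: 9 subunits of cytochrome c oxidase, 2 forms of cytochrome c, 9 subunits of the cytochrome bc1 complex, 12 subunits of ATP synthase (5 of its F1 head, 7 of its stator and membrane part F0), the ATPase inhibitor and 3 NADH dehydrogenases. Of these, 30 were among the 4388 oligonucleotides with values, and all 30 had a value on every array. *COX5B*, *COX6*, *COX7*, *COX9*, *ATP14* and *NDI1* were not analysed here. The list was set by gene function and not by measured values, but earlier results of these data were known when it was made.

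The strain 59A (MATa, ho) is a haploid that was derived from EC1118, a commercial wine yeast, and S288C (*SUC2*, *gal2*) is the laboratory strain behind the reference genome. The 30 segregants are haploid spore clones from 21 asci of the cross. All strains fermented the synthetic grape must MS300 at 28 °C, and RNA was taken at 50% of the fermentation, after 45 g of CO2 had been released. There were 5 cultures of 59A, 5 of S288C and 1 of each segregant. As models these are single clones: 59A carries only a single set of the alleles of its diploid ancestor, each segregant was sampled in a single culture, and sister spores share an ascus.

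In respiring yeast, NADH dehydrogenases and other donors feed electrons through coenzyme Q to the cytochrome bc1 complex, then through cytochrome c to cytochrome c oxidase, which reduces oxygen. The proton gradient that this builds drives ATP synthase, whose F1 head makes ATP and whose F0 part carries the protons through the membrane. In a sugar-rich must without air, yeast gets its ATP from glycolysis, many of these genes are held down by glucose repression, and the HAP complex is their best known activator. Where respiration does not run, ATP synthase can work in reverse as an ATPase that keeps up the membrane potential.

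Levels are log2 ratios of a strain's RNA (Cy3) over a pool of the RNA of the 30 segregants (Cy5), so a difference of 1 is a factor of 2. Array medians lay between -0.03 and 0.03, the 5 arrays of a parent correlated with each other at 0.82 or more over all genes, and 59A and S288C arrays correlated at 0.39 to 0.59. Among the segregants the correlations ranged from -0.44 to 0.86, with 13 of 435 pairs under -0.3. On the first axis of variation among the segregants, which held 31.0% of the variance of all genes, 20a, 19c and 16d stood apart from the others at -29.7, -27.1 and -25.5, against a highest value of 15.3. All arrays had the dyes the same way round, and a gene's mean over the segregants was not 0: among the 30 genes it ranged from -0.90 for *ATP20* to 0.28 for *ATP7*. A level below or above 0 is therefore not read as low or high expression here, and parents are set against each other or against the segregants' median of the same gene.

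Between the parents, 7 of the 30 genes passed the threshold (limma, adjusted p under 0.01), 5 higher and 2 lower in 59A. Over all genes 30.8% passed it, 17.1% higher and 13.7% lower in 59A, so the 30 genes held no larger share than the table as a whole. The 7 were not spread evenly over the complexes: 5 were subunits of ATP synthase, of 11 measured, and 1 was among the 16 measured genes of cytochrome c oxidase, cytochrome c and the bc1 complex. That contrast between complexes is a description and was not tested. No difference reached 0.5 on the log2 scale, and the median difference, 59A minus S288C, was 0.03 over the 30 genes and 0.01 over all genes. In 20 of the 30 genes the mean was higher in 59A, against 2272 of 4388 over the table. The 5 cultures of 59A all lay above those of S288C in 5 genes and all below in 1, and such separation was found for 33.5% of all genes. None of the 7 passed in a limma fit of all 40 arrays, whose error takes in the spread among segregants, and 2 of the 30 then had an unadjusted p under 0.05. Over all genes that fit called 265 of 4388, against 1352 with the parents alone. With the Benjamini-Yekutieli adjustment 3 of the 7 passed, *ATP16*, *ATP20* and *ATP5*, and 860 of the 4388 genes.

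**Figure D1:**
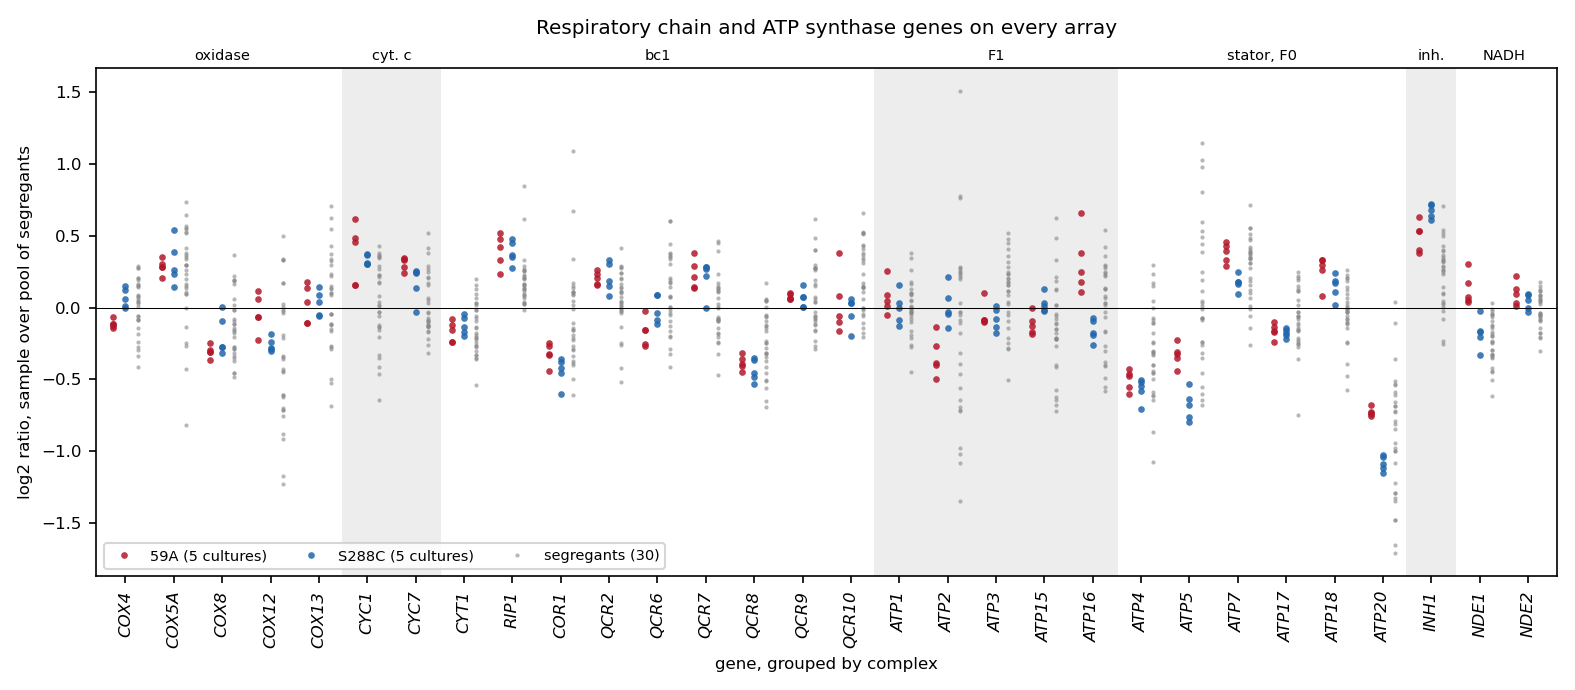
Log2 ratio to the pool of segregants (vertical axis) of the 30 genes, grouped by complex along the horizontal axis, in each culture of 59A (red), each culture of S288C (blue) and each segregant (grey). *ATP20* lies lowest, with 59A cultures between -0.75 and -0.68 and S288C cultures between -1.15 and -1.03, and *ATP2* spreads most among the segregants, between -1.35 and 1.51.

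The measured nuclear subunits of the stator and of F0 had means on 1 side, whereas the mitochondrial F0 gene *ATP6*, described below, was lower in 59A. All 6 nuclear genes measured had a higher mean in 59A, with differences between 0.01 and 0.36, and 3 of them, *ATP20*, *ATP5* and *ATP7*, rose past the threshold. *ATP20* (YPR020W) encodes subunit g, a membrane subunit that helps ATP synthase to form dimers. It measured -0.73, -0.75, -0.74, -0.68 and -0.74 in the 59A cultures, against -1.04, -1.15, -1.12, -1.09 and -1.03 in the S288C cultures. The groups were far apart for their spread: the difference was 0.36 ± 0.04 (SE), a ratio of 1.28, with an adjusted p of 2.9e-05 (limma).

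*ATP5* (YDR298C) encodes the stalk subunit OSCP, which ties the stator to the F1 head. Its values were -0.35, -0.33, -0.31, -0.22 and -0.44 in 59A, against -0.68, -0.76, -0.53, -0.80 and -0.64 in S288C. Every 59A culture lay above every S288C culture, and the difference was 0.35 ± 0.06 with an adjusted p of 5.0e-04 (limma). *ATP7* (YKL016C), for stator subunit d, had 0.29, 0.43, 0.33, 0.46 and 0.40 in 59A, against 0.25, 0.18, 0.18, 0.16 and 0.10 in S288C. The groups came close without overlap, and the difference of 0.21 ± 0.05 had an adjusted p of 0.0050. This call was lost when 59A culture 2 or 4, or S288C culture 3, 4 or 5, was left out, with adjusted p-values up to 0.016. For *ATP18*, *ATP4* and *ATP17*, for subunits i/j, b and f, the differences of 0.12, 0.07 and 0.01 did not pass.

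The F1 head was split. *ATP16* (YDL004W), which encodes the delta subunit of the central stalk, rose in 59A and *ATP2* (YJR121W), which encodes the catalytic beta subunit, fell, while *ATP1* (alpha), *ATP3* (gamma) and *ATP15* (epsilon) did not pass. *ATP16* measured 0.38, 0.11, 0.25, 0.18 and 0.66 in the 59A cultures, against -0.10, -0.07, -0.18, -0.26 and -0.19 in the S288C cultures. The 59A cultures scattered widely, with an SD of 0.22 against 0.08 in S288C, and still lay above all of S288C. The difference of 0.47 ± 0.09, a ratio of 1.39, was the largest of the 30 and had an adjusted p of 0.0011 (limma), but 0.021 in the methods' t-test. *ATP2* measured -0.27, -0.39, -0.40, -0.50 and -0.13 in 59A, against -0.05, 0.21, -0.14, -0.03 and 0.07 in S288C. Here the groups overlapped by 1 culture on either side, and the difference was -0.35 ± 0.08 with an adjusted p of 0.0034. Without 59A culture 3 or 4 or S288C culture 5 that adjusted p was just over 0.01, at most 0.011. *ATP15* had a difference of -0.14 ± 0.05 and an adjusted p of 0.040.

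*INH1*, the inhibitor that binds F1 and stops it from hydrolysing ATP, measured 0.38, 0.53, 0.53, 0.63 and 0.40 in 59A, against 0.72, 0.64, 0.61, 0.68 and 0.71 in S288C. The groups overlapped by 1 culture on either side, and the difference of -0.18 ± 0.06 missed the threshold with an adjusted p of 0.021 (limma). Without 59A culture 4 it passed, with -0.21 and an adjusted p of 0.0097.

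Of the 5 measured subunits of cytochrome c oxidase, *COX4* (YGL187C) fell in 59A and the rest did not pass. *COX4*, for subunit IV, had -0.13, -0.12, -0.06, -0.11 and -0.14 in 59A, against 0.15, 0.12, -0.0014, 0.01 and 0.06 in S288C. The groups did not overlap, and the difference of -0.18 ± 0.05 had an adjusted p of 0.0075 (limma). This call held in only 2 of the 10 fits that left out a culture, those without S288C culture 3 or 4, and the adjusted p reached 0.019 in the other 8. *COX12*, for subunit VIb, had the largest difference of the complex and pointed the other way, with -0.06, -0.07, 0.06, 0.12 and -0.22 in 59A, against -0.28, -0.30, -0.19, -0.29 and -0.24 in S288C. Every 59A culture but culture 5 lay above all of S288C. The difference was 0.23 ± 0.06 with an adjusted p of 0.012, which became 0.0018 without that culture. *COX5A*, the form of subunit V used in air, measured 0.20, 0.28, 0.35, 0.28 and 0.30 in 59A, against 0.38, 0.54, 0.23, 0.14 and 0.26 in S288C, and the difference of -0.03 ± 0.07 did not pass. For *COX8* and *COX13* the differences were -0.11 and -0.0034.

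None of the 9 bc1 subunits passed (limma), and 1 had an unadjusted p under 0.05, against 2317 of 4388 over all genes. Their differences lay between -0.16 and 0.12, with a median of 0.01 and standard errors of 0.05 to 0.09. *QCR6*, the acidic subunit next to cytochrome c1, had the largest, with -0.16, -0.27, -0.15, -0.25 and -0.02 in 59A, against 0.09, 0.09, -0.11, -0.09 and -0.04 in S288C. The groups overlapped, and the difference of -0.16 ± 0.06 had an adjusted p of 0.058. The catalytic subunits *CYT1* (cytochrome c1) and *RIP1* (the Rieske iron-sulfur protein) differed by -0.04 ± 0.05 and 0.01 ± 0.06. The core subunits *COR1* and *QCR2* differed by 0.12 ± 0.06 and -0.0062 ± 0.06, and the small subunits *QCR7*, *QCR8*, *QCR9* and *QCR10* by 0.01 to 0.06.

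**Figure D2:**
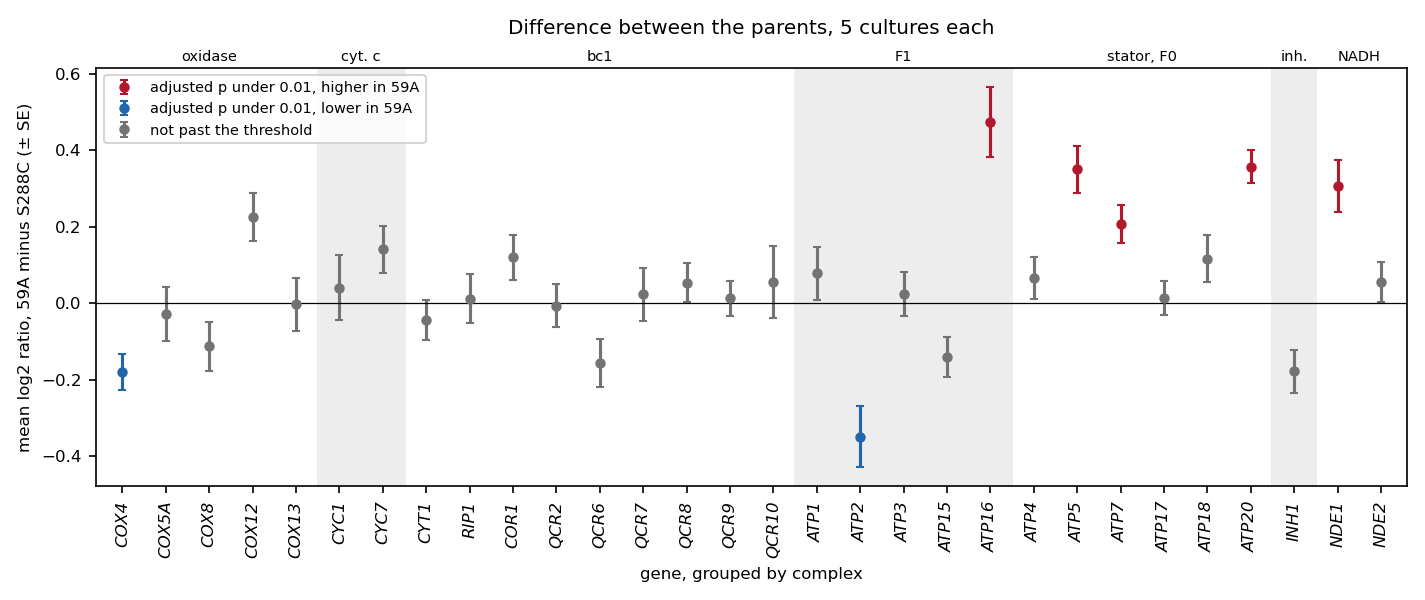
Mean log2 ratio of 59A minus that of S288C (vertical axis, points, with the standard error of the limma fit as bars) for the 30 genes grouped by complex (horizontal axis), 5 cultures of each parent. Past the threshold were *ATP16*, *ATP20*, *ATP5*, *NDE1* and *ATP7* above 0 (red) and *ATP2* and *COX4* below it (blue), and the 9 bc1 subunits stay between -0.16 and 0.12 (grey).

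Cytochrome c has 2 genes in yeast, *CYC1* (YJR048W) for the main form, iso-1, and *CYC7* for iso-2, which is known to be favoured when oxygen is low. *CYC1* measured 0.15, 0.45, 0.48, 0.61 and 0.15 in 59A, against 0.30, 0.37, 0.30, 0.31 and 0.36 in S288C. The 59A cultures lay on both sides of the narrow S288C range, with an SD of 0.21 against 0.03. *CYC7* measured 0.24, 0.35, 0.34, 0.33 and 0.28 in 59A, against 0.24, -0.03, 0.25, 0.13 and 0.25 in S288C. The differences of 0.04 ± 0.09 and 0.14 ± 0.06 did not pass (limma, adjusted p of 0.73 and 0.077). Of the 2, 1 had an unadjusted p under 0.05, against 2317 of 4388 over all genes. The balance of the pair, *CYC7* minus *CYC1*, averaged -0.06 ± 0.17 in 59A and -0.16 ± 0.14 in S288C (SD, n = 5 each), a difference of 0.10 ± 0.10 (SE) with p = 0.35 in an exact two-sided permutation test over all groupings of the 10 cultures.

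*NDE1* and *NDE2* encode the NADH dehydrogenases on the outer face of the inner membrane, which take up cytosolic NADH. *NDE1* (YMR145C) rose in 59A, with 0.04, 0.17, 0.08, 0.30 and 0.05, against -0.02, -0.33, -0.17, -0.20 and -0.17 in S288C. The groups did not overlap, and the difference of 0.31 ± 0.07, a ratio of 1.24, had an adjusted p of 0.0028 (limma), which was 0.025 with the Benjamini-Yekutieli adjustment. *NDE2* measured 0.01, 0.13, 0.09, 0.22 and 0.03 in 59A, against -0.03, 0.09, 0.10, 0.05 and -0.0033 in S288C, and its difference of 0.06 ± 0.05 did not pass. The balance *NDE2* minus *NDE1* was -0.03, -0.05, 0.02, -0.08 and -0.02 in 59A, against -0.0060, 0.42, 0.26, 0.25 and 0.16 in S288C. It was lower in 59A by -0.25 ± 0.07 (SE), with an exact permutation p of 0.016 and 0.032 after adjustment over the 2 pairs tested. That call held when 59A culture 3 or S288C culture 1 was left out and was lost, at an adjusted p of 0.063, when any of the other 8 was. The third pair, *COX5B* and *COX5A*, was not analysed here.

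Other genes of the pathway, in lists chosen without regard to how they moved but with earlier results of these data known, gave 14 higher and 7 lower in 59A among 68 measured of 99 listed. Over all genes 30.8% were called, 17.1% higher and 13.7% lower in 59A, so the 21 of 68 are at the background, and the short lists that follow are described without a test. Of 6 measured assembly factors of ATP synthase 2 rose in 59A and none fell. These were *ATP22*, which acts on the translation of the mitochondrial *ATP6* messenger in yeast (0.49 ± 0.08), and *ATP23*, a processing protease and chaperone of the Atp6 protein (0.48 ± 0.07). *ATP6* itself, a mitochondrial gene for an F0 subunit, was the only gene of the mitochondrial genome called among 6 measured and was lower in 59A, at -0.16 ± 0.29 in 59A and 0.39 ± 0.21 in S288C (SD, n = 5 each; adjusted p of 0.0045, limma). In the synthesis of coenzyme Q, *COQ5* and *COQ1* rose (0.52 ± 0.07 and 0.37 ± 0.05) and the other 5 measured did not pass.

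Heme and carrier genes gave 4 calls of 8, all higher in 59A, against 17.1% higher over all genes. The largest were *HEM14*, for protoporphyrinogen oxidase (0.90 ± 0.09), and *PET9*, the main ADP/ATP carrier (0.38 ± 0.09). The citrate cycle gave 3 of 9, all higher, led by *MDH1*, for mitochondrial malate dehydrogenase (0.43 ± 0.06), and *LSC1*, for a subunit of succinyl-CoA ligase (0.32 ± 0.06). The 3 measured genes of succinate dehydrogenase had differences between 0.06 and 0.18 and none passed (limma). Of these, 1 had an unadjusted p under 0.05, against 2317 of 4388 over all genes.

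Assembly factors of the respiratory complexes went both ways. For cytochrome c oxidase, *COX15*, which makes heme A, rose (0.63 ± 0.12) and *COX16* fell (-0.24 ± 0.06), with 8 of 10 not called. For cytochrome c and the bc1 complex, *CBS2*, a translation factor of the cytochrome b messenger, fell (-0.67 ± 0.11) and *CBP1*, which stabilises that messenger, rose (0.42 ± 0.08), as 2 of 3 calls among 7. The regulators gave 2 calls of 9. *HAP5*, a subunit of the HAP complex, fell in 59A to -0.43 ± 0.07, against 0.13 ± 0.07 in S288C (SD, n = 5 each), and *MIG1*, a glucose repressor, rose by 0.25 ± 0.05. The other HAP genes did not pass and went both ways. *HAP4* differed by 0.16 ± 0.06, *HAP2* by -0.18 ± 0.10 and *HAP3* by -0.20 ± 0.09 (limma, adjusted p of 0.030, 0.16 and 0.10). Of the remaining donors and ATPase-associated proteins, *DLD1*, for D-lactate dehydrogenase, fell by 0.77 on the log2 scale and *STF1*, a protein related to the inhibitor Inh1, by 0.26, of 3 measured.

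Among the 30 segregants, the genes differed in how much they varied. The SD over the segregants had a median of 0.23 over the 30 genes, against 0.29 over all genes. It came to 2.85 times the SD within a parent at the median gene, against 2.69 over all genes. *ATP2* varied most, from -1.35 in 17a through a median of -0.07 to 1.51 in 9a, with an SD of 0.62, at the 94.8th percentile of all genes. *NDE2* varied least, from -0.30 in 14b to 0.18 in 16d, with an SD of 0.12, at the 0.57th percentile. *NDE1*, from -0.61 in 16b to 0.03 in 19c, was also low with 0.16.

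Within F1, the stator and F0, cytochrome c oxidase and the bc1 complex the subunits differed in spread. In F1, *ATP1* had an SD of 0.18, against 0.62 for *ATP2*. In the stator and F0, *ATP18* ranged from -0.58 to 0.26 with an SD of 0.20, whereas *ATP5* ranged from -0.68 in 29c to 1.15 in 20a with an SD of 0.50. In cytochrome c oxidase *COX4* had 0.19 and *COX12*, from -1.23 in 7a to 0.50 in 20a, had 0.46. In the bc1 complex *RIP1* had 0.17 and *COR1*, from -0.61 in 3a to 1.09 in 16d, had 0.34. For cytochrome c, *CYC7* had 0.21 and *CYC1* 0.28. The highest values of *ATP5*, *COX12* and *COR1* lay in segregants that stood apart on the first axis, and these genes correlated with that axis at -0.82, -0.71 and -0.64. Its part in their spread was not tested.

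The parents did not span the segregants. Across the 30 genes, the median number of segregants outside the range of all 10 parental cultures was 19 of 30, against 17 over all genes. *ATP5* lay above every parental culture in 20 segregants and below in none, and *INH1* lay below every parental culture in 23 and above in none. For *NDE1* no segregant reached above the parents: the highest, 0.03, lay under all 5 cultures of 59A.

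Both parents lay on the same side of the segregants' median, with all 10 cultures, in 15 of the 30 genes. All 10 were above it in 9 genes (*COX12*, *CYC1*, *CYC7*, *RIP1*, *QCR2*, *QCR7*, *ATP18*, *INH1* and *NDE2*), which was so for 23.2% of all genes, and below it in 6 (*COR1*, *QCR8*, *ATP3*, *ATP4*, *ATP5* and *ATP17*), against 19.1%. For S288C the distance was largest in *ATP5*, whose mean lay 0.68 under the segregants' median, against 0.33 under it in 59A. For 59A the distance was largest in *CYC7*, whose mean lay 0.36 above that median, against 0.22 above it in S288C. On the second axis of the segregants, with 16.4% of the variance, the 59A cultures lay between 11.6 and 15.9 and the S288C cultures between 10.3 and 16.4, whereas the segregants had a median of -0.43 and reached 21.8 in 14a. The genes' own correlations with that axis ranged from -0.43 for *ATP18* to 0.67 for *QCR7* among the 9 genes in which the parents lay above, and from -0.51 for *COR1* to 0.03 for *ATP4* among the 6 in which they lay below.

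To compare whole complexes, each gene was set to its median over the segregants and the median over the genes of a complex was taken on each array. The stator and F0 lay between -0.11 and 0.02 in 59A and between -0.24 and -0.16 in S288C, without overlap. The external NADH dehydrogenases lay between 0.15 and 0.39 in 59A and between 0.0055 and 0.10 in S288C. For the bc1 complex the parents overlapped, from -0.08 to 0.05 in 59A and from -0.04 to 0.10 in S288C. Its segregants covered the narrowest range of the complexes with more than 2 genes, from -0.11 in 31b to 0.22 in 7a. That level is a median over 9 genes, against 5 or 6 in the others, so the ranges are not on an equal footing. Cytochrome c lay between 0.21 and 0.49 in 59A and between 0.18 and 0.32 in S288C. Both parents were above the segregants' median of 0.08, and the segregants ran from -0.35 in 19b to 0.48 in 18b. F1 ran from -0.44 in 4c to 0.35 in 1b among the segregants, and cytochrome c oxidase from -0.34 in 20b to 0.34 in 18c.

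Subunits of 1 complex did not in general vary together. Pearson's r over the 30 segregants had a median of 0.08 over the 73 pairs within a complex and of 0.05 over the 362 pairs of different complexes. Over all pairs of genes in the table the median was -0.0075, with the middle 90% between -0.53 and 0.57. These are descriptions across 30 arrays that share the pool channel, and pairs of genes are not independent. In the bc1 complex the median was 0.01 over 36 pairs, from -0.75 for *QCR9* with *QCR10* to 0.60 for *RIP1* with *QCR9*. In the stator and F0 it was -0.0090 over 15 pairs, with -0.70 for *ATP5* with *ATP7* and 0.42 for *ATP17* with *ATP18*. In cytochrome c oxidase it was 0.08 over 10 pairs, from -0.47 for *COX4* with *COX12* to 0.55 for *COX12* with *COX13*.

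In the F1 head all 10 pairs of its 5 subunits were positive, from 0.12 for *ATP15* with *ATP16* to 0.59 for *ATP3* with *ATP16*, with a median of 0.43. All 5 also correlated positively with the first axis of all genes, from 0.37 for *ATP1* to 0.59 for *ATP16*. Genes outside F1 went both ways on that axis, with *QCR10* at 0.73 and *QCR9* at -0.73. The part of the axis in the F1 pairs was not tested. *CYC1* and *CYC7* gave 0.57, and *NDE1* and *NDE2* 0.08. Across complexes *ATP5* went with *COR1* (0.81) and *COX12* (0.76), and *CYT1* with *ATP4* (0.71), more closely than with partners of their own complex. Without 20a, 19c and 16d the F1 median was 0.42, but its lowest pair, *ATP15* with *ATP16*, came to 0.0013, and the median of cytochrome c oxidase came to 0.23. In the same 27 segregants *CYC1* with *CYC7* gave 0.64, *ATP5* with *COR1* 0.79 and *ATP5* with *ATP7* -0.52, while *RIP1* with *QCR9* came to 0.36.

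**Figure D3:**
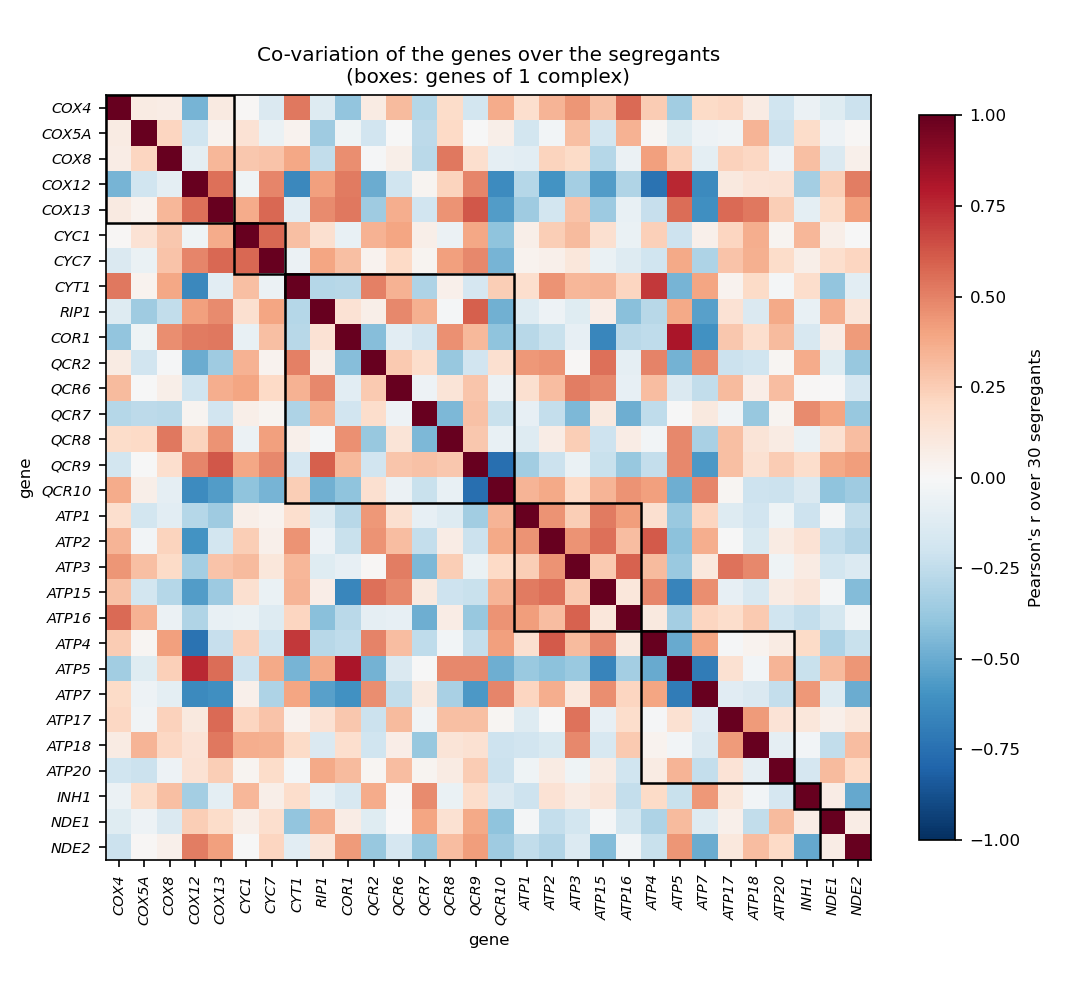
Pearson's r over the 30 segregants between each pair of the 30 genes (colour scale, from blue at -1 to red at 1), with genes on both axes in the order of the complexes and a box around each complex. The F1 box holds only positive values, 0.12 to 0.59, whereas the bc1 box runs from -0.75 to 0.60.

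There were 10 fermentation traits: the highest rate of CO2 release Rmax, the rates R50 and R70 at later points, the duration Fd, the cell population Cp, the assimilated nitrogen Nass, and succinic acid, glycerol, acetic acid and pyruvic acid. A gene was called with a trait where Spearman's rho over the segregants was over 0.6 in size with an adjusted p under 0.05. Of 300 relations of the 30 genes with the 10 traits, 4 were called, or 2 genes: *CYC1* with R50, R70 and Fd, and *ATP3* with R70. Over all genes 1.16% of relations were called, so 4 of 300 is near the background. With R70, 1.19% of all genes were called with a negative rho. With R50, 0.752% were called with a negative rho, and with Fd 1.09% with a positive one.

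*ATP3* (YBR039W), for the gamma subunit that turns inside the F1 head, was lower in segregants that still fermented fast late on. Its levels ran from -0.50 in 28b through a median of 0.16 to 0.52 in 22d, and R70 ran from 0.67 g CO2 per l per h in 22c through a median of 1.36 to 2.08 in 4c. In the slowest, 22c and 29c, *ATP3* measured 0.47 and 0.36, and in the fastest, 4c and 1b, -0.29 and 0.03. The segregant 22d stood off this trend, with the highest *ATP3* level and an R70 of 1.77. Over the 30 segregants Spearman's rho was -0.71 (permutation p = 1e-05, the smallest that 100000 permutations can give, and adjusted p = 0.0014 over all genes) and Pearson's r -0.65 (permutation p = 1e-04). Without the 2 segregants farthest from the median R70, 4c and 1b, r was -0.62 (permutation p = 0.00037). With 1 segregant from each of the 21 asci rho was -0.80, and without 20a, 19c and 16d it was -0.73. *ATP3* itself differed by only 0.02 ± 0.06 between 59A and S288C, whose labels give an R70 of 1.49 and 0.81. Its systematic name places *ATP3* on chromosome II, where the study also mapped a locus for R70. Genotypes were not used here, so linkage of the gene to that locus was not tested and cannot be told apart from the relation.

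*CYC1* ran from -0.64 in 19b through a median of 0.03 to 0.42 in 18b, and its level was lower in segregants with a fast late rate and a short fermentation. In the slowest, 22c and 29c, it measured 0.29 and 0.37, and in the fastest, 4c and 1b, -0.20 and -0.33. The segregant 19b stood off, with the lowest level at an R70 of 1.07. With R70 rho was -0.65 (adjusted p = 0.0076, permutation p = 0.00019) and Pearson's r -0.61 (permutation p = 0.00049), and r was -0.56 (permutation p = 0.0018) without 4c and 1b. With R50 rho was -0.61 (adjusted p = 0.028, permutation p = 0.00044) and Pearson's r -0.55 (permutation p = 0.0016), and r was -0.54 (permutation p = 0.0029) without 14b and 4c. With Fd rho was 0.66 (adjusted p = 0.013, permutation p = 9e-05) and Pearson's r 0.57 (permutation p = 0.0010), and r was 0.56 (permutation p = 0.0021) without 22c and 29c, whose fermentations took 149 and 144.5 h. R50, R70 and Fd describe the same fermentations, so these 3 calls are not separate evidence. With 1 segregant per ascus rho was -0.59 with R70, -0.53 with R50 and 0.60 with Fd, and none of the 3 was called. Without 20a, 19c and 16d all 4 relations of *ATP3* and *CYC1* stayed called.

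**Figure D4:**
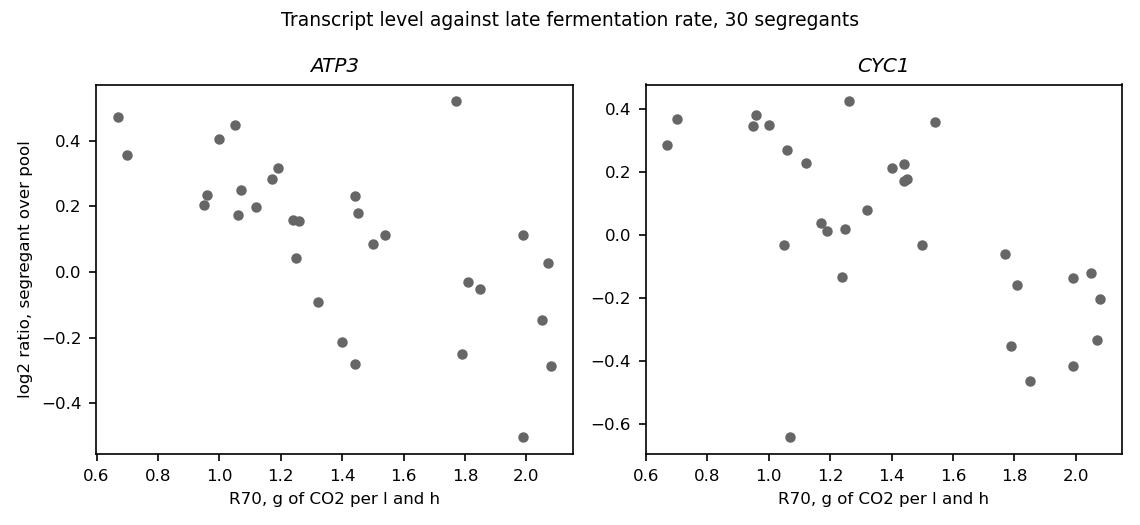
Log2 ratio to the pool (vertical axis) of *ATP3* (left) and *CYC1* (right) against the late fermentation rate R70 in g CO2 per l per h (horizontal axis); each point is 1 of the 30 segregants. Both fall towards fast segregants, with rho of -0.71 for *ATP3* and -0.65 for *CYC1*, and 22d stands off at 0.52 in the left panel.

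A further 9 relations had an adjusted p under 0.05 (over all genes) with a rho of 0.6 or less in size, which makes 13 of 300 under that adjusted p, against 2.78% of the relations of all genes. Those with the fermentation rates and nitrogen were negative: *CYC1* and *QCR6* with Rmax (-0.56 and -0.55), *COX8*, *COX13* and *ATP18* with R70 (-0.55, -0.54 and -0.57), and *QCR6* with Nass (-0.58). *QCR6* with Fd was positive at 0.60. With pyruvic acid *ATP3* and *ATP16* gave -0.58 each. For cell population, succinic acid, glycerol and acetic acid no gene of the table was called, by Spearman's rho or Pearson's r, and 2, 2, 6 and 4 of the 30 genes had an unadjusted p under 0.05, against 581, 413, 970 and 477 of the 4388.

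By complex, cytochrome c had the largest median rho with the rates: -0.51 with Rmax, -0.53 with R50 and -0.52 with R70, and 0.52 with Fd, since *CYC7* ran the same way as *CYC1* (-0.40 with R70 and 0.39 with Fd, not called). Cytochrome c oxidase had a median rho of -0.27 with R70, and the bc1 complex, F1 and the stator with F0 had -0.13, -0.24 and -0.12. The median of cytochrome c is over only 2 genes, including *CYC1* with its calls, against 5 to 9 genes in these complexes. The ranking is therefore not on an equal footing. Over the 30 genes, rho with R70 was negative in 21, with a median of -0.22, against 2262 of 4388 genes and a median of -0.01 over the table. With Fd it was negative in 9 of the 30, with a median of 0.16, against 2013 of 4388 and 0.03. The genes are not independent of each other, and these counts are descriptions.

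**Figure D5:**
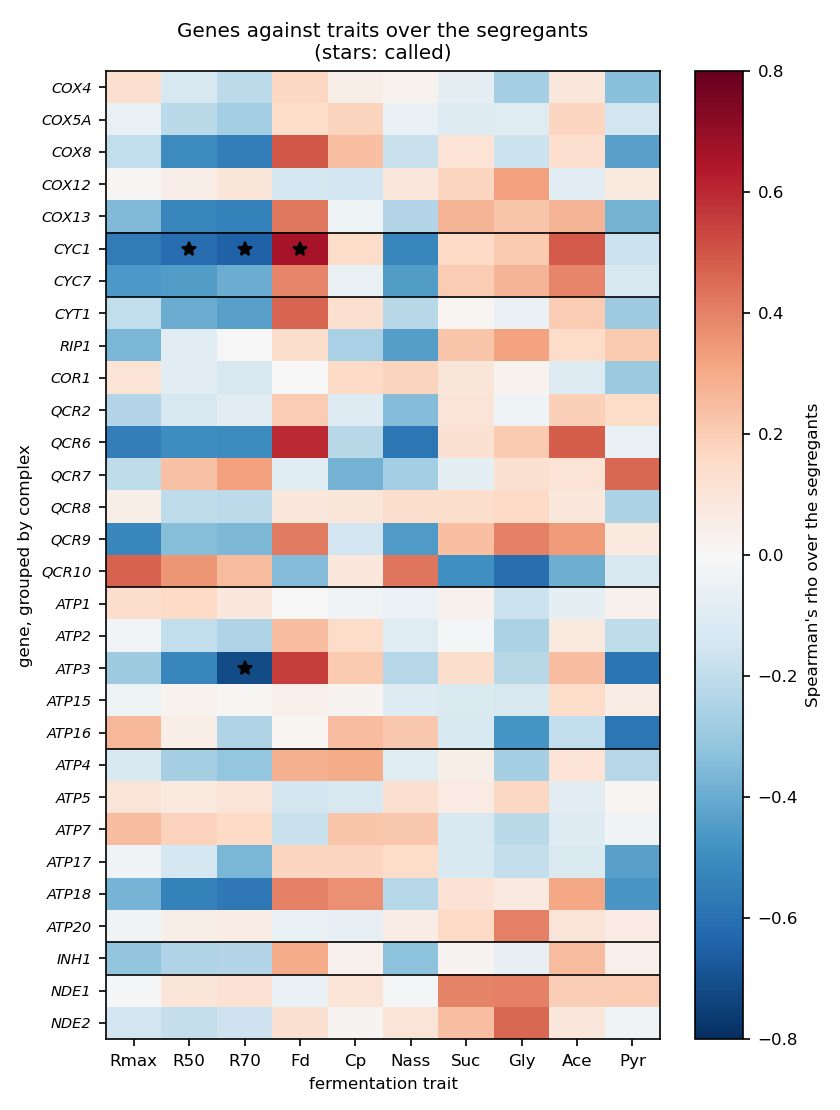
Spearman's rho over the segregants (colour scale, from blue at -0.8 to red at 0.8) of the 30 genes (rows, by complex) with the 10 fermentation traits (columns), with a star on the relations called. The stars stand on *CYC1* with R50, R70 and Fd and on *ATP3* with R70, and the *CYC7* row has the same signs as *CYC1* with the rates, -0.40 against -0.65 with R70.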

How the data were processed

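RNA of 5 cultures of 59A, 5 of S288C and 30 segregants was hybridised by the authors against a pool of segregant RNA on 2-colour arrays. The deposited values are log2 ratios, normalized by the authors with print-tip loess within and quantiles between arrays (R 2.9.2, limma), with 2 technical hybridizations averaged. The direction, sample over pool, comes from the study's figure axis and was checked on the *ASP3* genes, which S288C carries in several copies. The deposited trait table gives 1 value per strain in other units (rates, hours, g per l). Precision is limited by the number of arrays. Per the study's methods, the 5 cultures of a parent were independent.

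Parents were compared with limma 3.58.1 (R 4.3.3, lmFit and eBayes, Benjamini-Hochberg over 4388 genes, adjusted p under 0.01). Traits were compared by Spearman's rho with a t approximation, adjusted over all genes within a trait, plus 100000 permutations for called pairs (Python 3.11.15, scipy 1.17.1). Tests are two-sided and were tested on simulated data. Names were matched to assembly R64 for 4073 oligonucleotides. Replicate numbers 1 to 5 did not pair the parents (same-number correlations of -0.29 to 0.39).

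The genes and lists were chosen with earlier results of these data known. Genes named with values in every culture were those of largest difference in each complex, the paralog pairs and those with a called trait. *ATP5*, *ATP7*, *ATP2* and *COX4* were added after their values were seen, as were the genes named outside the largest and smallest SD in each complex. From each list the 2 called genes of largest difference were named, and *HAP2*, *HAP3* and *HAP4* were added after their values were seen.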

Additional observations from a re-analysis of the deposited data

Results flagged for a closer look

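In 3 of 60 sets of 5 parental cultures a single culture lay far from the other 4, which is about the share that chance gives (1 in 20). *ATP3* measured 0.10 in 59A culture 5, against -0.10 to -0.09 in the other 59A cultures. *ATP18* measured 0.083 in 59A culture 1, against 0.26 to 0.33 in the others. *QCR7* measured -0.0066 in S288C culture 2, against 0.22 to 0.29 in the others. None of these 3 genes was called between the parents.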

How the results depend on the processing

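The count of 7 genes called between 59A and S288C stayed within 1.5 times under 15 of 19 alternatives. It was 3 with the Benjamini-Yekutieli adjustment (*ATP16*, *ATP20* and *ATP5*), 4 with the replicate number as a block (replicate block, without *ATP7*, *COX4* and *NDE1*) and 4 to 7 when a culture was left out. With all 40 arrays in 1 limma fit, where the spread among segregants enters the error, it was 0, with 2 genes at an unadjusted p under 0.05. Over all 4388 genes the main fit called 1352. That count was 860 with the Benjamini-Yekutieli adjustment, 1202 with the replicate block, 1148 to 1367 without a culture and 265 with all 40 arrays. *ATP16*, *ATP20*, *ATP5* and *NDE1* were called in all 10 fits without a culture. The study's methods name t-tests without their form. A Welch t-test, which allows unequal spread, called 5, without *ATP16* and *ATP2*, and 1013 of the 4388 genes. No called gene changed direction, and *CYC1*, not called, turned to -0.020 without 59A culture 4 and reached 0.095 without 59A culture 1.

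The 4 relations with traits became 2 with Pearson's r or at an adjusted p under 0.01, 1 with the Benjamini-Yekutieli adjustment and 13 with no floor on rho. Over all genes the 507 called of 43880 became 317, 199, 97 and 1222 in the same order. With 1 segregant per ascus there were 8, of which only *ATP3* with R70 was among the 4, and 596 over all genes. Without 16d, 19c and 20a, an alternative chosen after seeing the data, there were 10, the 4 included. Without 22c and 29c *CYC1* with R70 gave -0.60 and with R50 -0.57 and neither was called. The cause of these shifts was not tested.

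The balance of *NDE2* and *NDE1* stayed negative throughout. It was -1.44 with each gene scaled by its SD over the segregants (adjusted p of 0.079, exact permutation test), -0.31 to -0.20 without a culture, and -0.25 with same-numbered cultures paired (replicate block), where the smallest p that sign flips of 5 pairs can give is 0.0625. *CYC7* minus *CYC1* was not called under any of 12 alternatives.

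Limits: 1 array per segregant gives no error for a single segregant. Oligonucleotides of paralogs can cross-hybridise, and sequence differences of 59A at an oligonucleotide were not tested. The dyes were never swapped.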
